A study of Mus musculus with 4 samples.

Results

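Hdc, the mast cell proteases Cma1, Mcpt4, Cpa3, Tpsb2 and Tpsab1, and the IgE receptor subunits Fcer1a and Ms4a2 are 8 of the 28034 gene names on the arrays used here. They were selected by gene name, and every non-control probe of each gene was taken, which gave 9 of 41174 probes. The names were picked with earlier results of the same arrays in view, so their values are given as a description, without a test. Above background on all 4 arrays were 7 of the 9 probes, covering 6 of the 8 genes.

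The RNA came from back skin taken through its full thickness from 42-day-old males, and the study asked which genes respond to the loss of Fgf18, a secreted fibroblast growth factor, in resting (telogen) skin. In the cKO mice Fgf18 was deleted in epithelial cells positive for keratin 5, and the WT mice were C57BL/6, a strain name that the labels also give for cKO. Per genotype, polyA RNA of 3 mice made up 1 pool, of which 200 ng was labelled with Cy3 and read on duplicate one-colour arrays. Every SD, standard error (SE) and p-value below therefore measures the spread between duplicate arrays of 1 pool, and the comparison is between 2 pools and not between genotypes.

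Mast cells are tissue-resident immune cells that store histamine and proteases in granules and release them when IgE on their surface is cross-linked. Hdc encodes histidine decarboxylase, the enzyme that makes histamine. In mouse skin the proteases belong to the connective tissue type of mast cell: the chymases Cma1 (mMCP-5) and Mcpt4 (mMCP-4), carboxypeptidase A3 (Cpa3) and the tryptases Tpsb2 (mMCP-6) and Tpsab1 (mMCP-7).

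Array brightness, taken as the 75th percentile of processed signals, was 1403 and 1453 in cKO, against 1271 and 1316 in WT. Levels below are the log2 of a signal minus the log2 of its array's 75th percentile, and a change is the mean cKO level minus the mean WT level. Levels of different probes are not compared, since probes differ in brightness for the same amount of RNA. Fgf18 itself had levels of 1.86 and 1.86 in cKO, against 2.18 and 2.21 in WT, a change of -0.33 (SE 0.025, limma adjusted p = 0.0035) that is 1.26-fold and under the 1.5-fold asked of a call. Limma called all 10 tested markers of the growing hair shaft and inner root sheath higher in cKO, against 5.67% of all genes. Their median change was 8.26. Their summed scaled signal was 294.2 to 296.5 on the cKO arrays, against 1.51 to 1.599 on the WT arrays. Krt85, Krt86 and Krt25 were well above background in cKO only, so they were tested through that pool and their WT level is not measured. Their direction was thus nearly fixed by the filter, though the count, median and summed signals above include them. The others were well above background on all arrays and were higher by 4.09 (Krt33b) to 8.58 (Krt33a). Both pools are labelled telogen, so the cKO pool goes against its label in this respect, and no value below can be given without that pool. The part of this difference in the mast cell values was not tested.

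Hdc gave about 2-fold more signal in cKO, while each of the proteases above background and Fcer1a gave less. Of the 7 probes above background, 6 were lower and 1 was higher in cKO, and for each of the 7 both cKO arrays lay on the same side of both WT arrays. The share of all genes separated in this way was not counted. At a limma adjusted p under 0.05 and any fold, 22.1% of all genes were higher and 33.6% lower. Differences beyond the spread of duplicates are thus common on these arrays, and nothing is read from the 7. The smallest gap between the nearest arrays of the 2 pools was 0.31 (Tpsb2), against a gap between duplicates of at most 0.17 (Fcer1a). In whole-tissue RNA, fewer cells of a type and less RNA per cell cannot be told apart.

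The probe for Hdc (chr2:126419516-126419575 on mm9, minus strand) had processed signals of 1456 and 1560 in cKO, against 673.5 and 683.0 in WT. Its levels were 0.05 and 0.10 in cKO and -0.92 and -0.95 in WT, so the pools did not overlap and lay 0.97 apart at their nearest arrays. The change was 1.01 (SE 0.028, 2 arrays per pool), or 2.01-fold higher. Among the 17562 genes tested, 3.27% had a change this high or higher.

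Cma1, the chymase whose mouse form has an elastase-like activity, was measured by 2 probes. The brighter one (chr14:56560454-56560513, minus strand) had signals of 9790 and 10171 in cKO, against 14872 and 14207 in WT. Its change was -0.69 (SE 0.058), 1.61-fold lower. The dimmer one matches chr14:56561491-56562550 (minus strand), a genomic span of 1060 bases for a probe of 60 bases, so that it crosses at least 1 intron. It had signals of 1383 and 1392 in cKO, against 1839 and 1882 in WT, with a change of -0.57 (SE 0.022), 1.48-fold lower. The 2 probes read different places of the transcript and both were lower in cKO on every pair of arrays. The sequence of the dimmer probe, from the scanner files, is shown because it carries this second reading of Cma1:
Cma1 (dimmer probe): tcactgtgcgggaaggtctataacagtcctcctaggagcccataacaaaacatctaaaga

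Mcpt4, the chymase regarded as the mouse counterpart of human chymase in substrate and tissue, had signals of 17641 and 18150 in cKO, against 22296 and 22605 in WT (chr14:56678589-56678648, minus strand). The change was -0.47 (SE 0.016), 1.39-fold lower. Cpa3, the metalloprotease stored in granules together with chymase, had signals of 4310 and 4423 in cKO, against 5503 and 5605 in WT (chr3:20115674-20115733, minus strand). Its change was -0.49 (SE 0.013), 1.40-fold lower. Mcpt4 and Cpa3 were thus lower by nearly the same amount, and their changes differed by 0.020 (SE 0.021).

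Tpsb2 had signals of 764.8 and 759.1 in cKO, against 889.3 and 886.8 in WT (chr17:25504458-25504517, plus strand). The change was -0.36 (SE 0.041), 1.29-fold lower, the smallest among the 4 proteases above background, although with quantile normalization alone Mcpt4 (-0.35) was smaller than Tpsb2 (-0.38). Tpsab1, the other tryptase (chr17:25480640-25480699, minus strand), was not well above background on any array, with signals of 7.78 and 6.93 in cKO and 7.34 and 8.54 in WT. C57BL/6 mice are known to carry a splice-site mutation that leaves them without this tryptase. No fold is given for it. The probes of both tryptases are shown, because the genes are close relatives and one probe could read the other's RNA. Capitals mark the bases that differ in their ungapped alignment, where 39 of 57 bases match (68.4%).
Tpsb2: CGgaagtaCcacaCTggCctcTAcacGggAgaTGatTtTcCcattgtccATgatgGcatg
Tpsab1: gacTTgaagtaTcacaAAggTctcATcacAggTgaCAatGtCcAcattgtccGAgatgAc
The 18 differing bases are spread along the whole overlap. For the other 7 member probes, the most alike probe of another gene on the array matched 31 to 33 bases of the overlap.

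Fcer1a, the subunit that binds IgE, lay closest to background among the measured members. Its signals were 51.7 and 47.7 in cKO, against 69.2 and 68.8 in WT (chr1:175152865-175152924, minus strand), while the lowest signals counted as well above background were 33.5 and 18.5 in cKO and 33.4 and 41.1 in WT. The change was -0.62 (SE 0.088), 1.53-fold lower, with the widest gap between duplicates of any measured member. Ms4a2, the beta subunit of the same receptor (chr19:11691778-11691837, minus strand), was not well above background on any array. Its signals of 12.6 and 19.4 in cKO and 23.5 and 16.1 in WT overlapped. The receptor is therefore represented by the alpha subunit probe alone, whose sequence is:
Fcer1a: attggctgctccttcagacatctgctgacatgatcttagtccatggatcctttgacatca

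**Figure D1:**
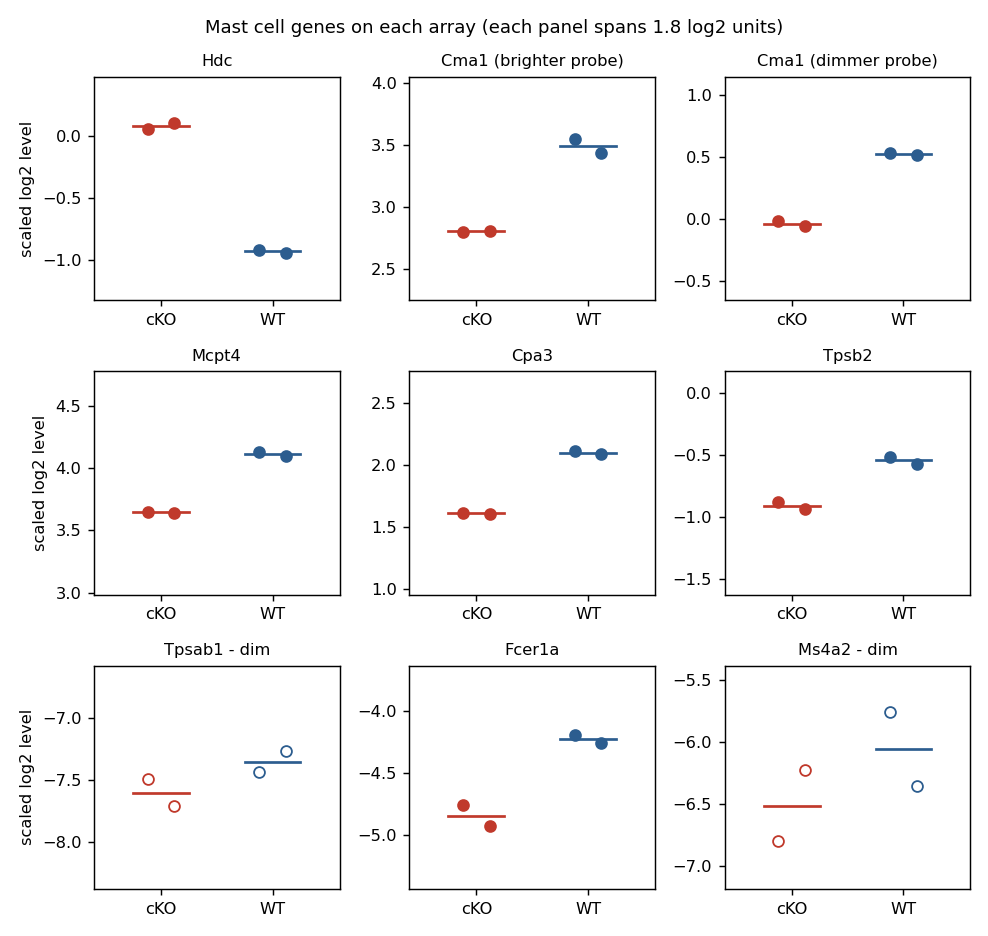
Level of each member probe on each array (vertical axes, log2 of signal minus the array's 75th percentile, all panels spanning the same number of log2 units), with the 2 cKO arrays left of the 2 WT arrays. Points are arrays, lines are group means, and open points are probes not well above background; Hdc is higher in cKO by 1.01, and the other filled probes are lower by 0.36 to 0.69.

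Ordered by change, the measured genes run from Cma1 (-0.69, brighter probe) through Fcer1a (-0.62), Cpa3 (-0.49), Mcpt4 (-0.47) and Tpsb2 (-0.36) to Hdc (1.01). With normexp and quantile normalization Fcer1a came to -0.27, the smallest decrease of the 5, and its call and that of Cma1 (-0.57), given below, were lost. Neighbours at the lower end lay close to their error, taken over the 2 probes as if independent. Fcer1a and Cma1 differed by 0.068 (SE 0.11) and Cpa3 and Fcer1a by 0.13 (SE 0.089). The step between Tpsb2 and Mcpt4 was 0.11 (SE 0.044), or 2.43 times its SE. Hdc stood 1.37 above Tpsb2. Of all genes tested, 3.61% had a change as low as that of Cma1 and 14.3% one as low as that of Tpsb2, so the smaller of these decreases are common on these arrays. By the rule used for other genes (limma adjusted p under 0.05 and at least 1.5-fold), Hdc is among the 5.67% of genes called higher, and Cma1 and Fcer1a are among the 4.81% called lower. The selection used this contrast, and nothing is read from these calls.

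The ratio of Hdc to a protease on the same array does not depend on any scaling that multiplies a whole array by 1 number. Against the mean of the 5 protease genes, the log2 ratio was 0.11 and 0.22 in cKO, against -1.29 and -1.30 in WT. The difference was 1.46 (SE 0.055), a 2.75-fold higher ratio in cKO, and 1.30 after quantile normalization, which does reshape each array. Without Tpsab1, which was at background, the difference was 1.51 (SE 0.037), or 2.85-fold. Hdc against Cma1 showed the widest difference, with log2 ratios of -2.75 and -2.70 in cKO and -4.46 and -4.38 in WT, 1.69 apart (SE 0.049). The differences against Mcpt4 (1.48, SE 0.030), Cpa3 (1.499, SE 0.032) and Tpsb2 (1.37, SE 0.057) were smaller. Hdc cancels when these are compared, so they differ as the proteases do, with 0.11 (SE 0.044) between Tpsb2 and Mcpt4. Hdc is in each of these ratios, so they are not separate readings of it.

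**Figure D2:**
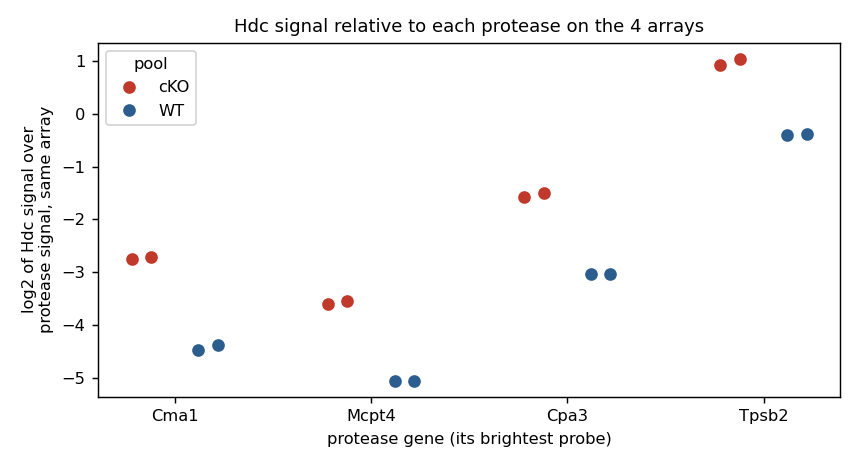
Log2 of the Hdc signal over the signal of each of 4 proteases on the same array (vertical axis), with the 2 cKO arrays left of the 2 WT arrays for each protease on the horizontal axis. Each point is 1 array, and for every protease both cKO arrays lie above both WT arrays, by 1.37 (Tpsb2) to 1.69 (Cma1) between means.

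The genes most like Hdc over the 4 arrays were taken from 16637 genes well above background on all arrays, by the Euclidean distance between levels centred on each gene's mean. They were ENSMUST00000087085, Rab5c, Cdca5, Aldh3b3 and Brd8dc, at distances of 0.011 to 0.031, with changes of 0.99 to 1.02. None is a mast cell gene of the lists used here. Members were left out of the search and those lists hold 47 tested genes, so this outcome was nearly fixed and says nothing about Hdc. For the mean profile of the 5 protease genes they were Mmp23, 2510009E07Rik, F420014N23Rik, Ehbp1l1 and Ptp4a3, at distances of 0.0079 to 0.013, with changes of -0.46 to -0.45. That profile includes Tpsab1, which was at background. Without it, as chosen after seeing the data, the 5 genes were Sox6, Wdr91, Col14a1, Atp5k and Pcdh20, with changes of -0.52 to -0.49, and 0 genes were shared with the first set. With 4 arrays in 2 pools, such likeness is mainly a likeness of the change between the pools.

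Promoters of Cpa3, Mcpt4 and Hdc are shown because the first 2 genes were lower by like amounts while Hdc was higher. The sequences are from RefSeq on GRCm38.p6 and run 250 bases up to the gene's start, and an entry was found for 6 of the 8 genes (not for Tpsb2 and Tpsab1). Capitals mark the hexamers AGATAA and TGATAA, of the kind bound by GATA factors, and CATGTG, of the kind bound by Mitf and other basic helix-loop-helix factors. Both strands were searched, and no match overlapped another in the 6 windows.
Cpa3 (GRCm38.p6 chr3:20242182-20242431, minus strand): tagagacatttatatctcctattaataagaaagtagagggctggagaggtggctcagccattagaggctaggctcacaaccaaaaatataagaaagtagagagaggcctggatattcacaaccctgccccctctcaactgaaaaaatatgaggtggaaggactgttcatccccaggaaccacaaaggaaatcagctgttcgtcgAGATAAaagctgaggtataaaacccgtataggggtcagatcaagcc
Mcpt4 (GRCm38.p6 chr14:56062311-56062560, minus strand): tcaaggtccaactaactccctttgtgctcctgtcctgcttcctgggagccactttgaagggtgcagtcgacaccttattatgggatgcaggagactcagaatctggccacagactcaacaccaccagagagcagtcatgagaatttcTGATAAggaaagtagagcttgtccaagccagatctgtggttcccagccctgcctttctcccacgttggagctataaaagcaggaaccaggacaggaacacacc
Hdc (GRCm38.p6 chr2:126618679-126618928, minus strand): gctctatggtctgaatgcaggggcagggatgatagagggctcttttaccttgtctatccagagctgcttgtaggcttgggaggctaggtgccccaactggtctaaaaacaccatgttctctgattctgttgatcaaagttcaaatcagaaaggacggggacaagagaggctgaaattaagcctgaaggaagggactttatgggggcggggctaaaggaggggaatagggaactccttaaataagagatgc
AGATAA began 46 bases before the start of Cpa3, and TGATAA began 103 bases before that of Mcpt4. Neither was in the windows of Hdc and Cma1, while Fcer1a held 1 AGATAA and Ms4a2 held 3. A GATA hexamer was thus in 4 of 6 windows, against 16.6% of 32851 RefSeq promoter windows of the same length. CATGTG was in 1 of 6 (Fcer1a), against 12.3% of all windows. These matches are letters in a window and show no binding.

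The rest of the mast cell programme was read from 6 lists of 61 genes that are no members, of which 47 were tested. The limma fit over all 17562 genes called 1 of the 47 higher (Runx1) and 3 lower (Tpsg1, Plcg1 and Maob), against 5.67% and 4.81% of all genes. At an adjusted p under 0.05 and any fold, 10 of the 47 were higher and 21 lower, against 22.1% and 33.6% of all genes. At an unadjusted p under 0.05 the shares of all genes were 25.2% higher and 37.4% lower. The median change of the 47 was -0.12 and 66.0% were below 0, beside a median of -0.05 and 57.1% below 0 over all genes.

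Among the other proteases, Tpsg1, a membrane-anchored tryptase, fell 1.76-fold. Its levels were -0.15 and -0.14 in cKO, against 0.67 and 0.67 in WT (change -0.82, SE 0.023, limma adjusted p = 0.00093). Of this list of 10, 4 genes were tested. Cma2, a chymase-locus gene, changed by -0.41, Ctsg (cathepsin G) by 0.18 and Gzmc (granzyme C) by 0.23, all short of 1.5-fold. The mucosal mast cell proteases Mcpt1 and Mcpt2, the basophil proteases Mcpt8 and Prss34, and Mcpt9 and Gzmb were not well above background in either pool.

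None of the 11 granule storage and release genes reached 1.5-fold, so limma's rule called 0. At any fold, 0 were higher and 6 lower at an adjusted p under 0.05, against 22.1% and 33.6% of all genes. At an unadjusted p under 0.05, 1 was higher and 6 lower, against 25.2% and 37.4% of all genes. Their median change was -0.26 and 8 of the 11 were below 0, beside -0.05 and 57.1% over all genes. Srgn, the serglycin core that holds proteases and histamine in the granule, changed by -0.44, and Slc18a2, the vesicular transporter that loads histamine into granules, by -0.43. Both are close to the values of Mcpt4 and Cpa3 and opposite in sign to Hdc, and they are the largest changes of this list. Rab27b was close behind (-0.42), but its dimmer probe gave 0.44. Of all genes tested, 8.85% had a change as low as that of Mcpt4 (-0.47), so decreases of this size are common on these arrays. Ndst2 (0.01), Rab27a (0.05) and Stxbp2 (0.11) were above 0, and Vamp8 changed by -0.07.

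In IgE receptor signalling, 11 of 12 genes were tested, with a median of -0.12. Plcg1, a phospholipase downstream of the receptor, fell 1.81-fold (change -0.86, SE 0.078, limma adjusted p = 0.0047), with levels of -2.93 and -2.80 in cKO and -1.93 and -2.08 in WT. Its other probe gave 0.16, so the probes disagree, and the mean of its probes (-0.35) was not called. Syk, the kinase recruited by the receptor, changed by 0.49 and Fcer1g, the shared gamma chain, by -0.27, neither of them called.

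Growth and transcription genes went both ways, with 4 of 9 tested genes (of 10) below 0 and a median of 0.06. Runx1, a haematopoietic transcription factor that hair follicle epithelium also expresses, rose 1.75-fold (change 0.81, SE 0.072, limma adjusted p = 0.0046), with levels of -1.35 and -1.32 in cKO and -2.24 and -2.06 in WT. Its other probe gave 0.05 and the mean of its probes, 0.43, was not called. Kit, the receptor for stem cell factor that mast cells and melanocytes both carry, changed by 0.31, and Gata2 by -0.27. Il1rl1, the IL-33 receptor, changed by -0.56 at its brighter probe and -1.74 at its dimmer one, and was called lower (-1.15) when its probes were averaged.

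Among other surface and eicosanoid genes, Maob, a monoamine oxidase, fell 1.53-fold, with levels of 0.90 and 0.93 in cKO and 1.54 and 1.52 in WT (change -0.61, SE 0.025, limma adjusted p = 0.0015). Of the 10 genes tested 9 were below 0, against 57.1% of all genes, with a median of -0.16. Some lay near 0, such as Adora3 (-0.005). At a limma adjusted p under 0.05 and any fold, 0 were higher and 5 lower, against 22.1% and 33.6% of all genes. Mrgprb1 and Mrgprb2, receptors of the family by which mast cells respond without IgE, changed by -0.40 and 0.09, neither of them called. Histamine breakdown, transport and receptor genes were mostly dim: 2 of 7 were tested, and limma called 0 of them, since neither reached 1.5-fold. Hnmt, the enzyme that methylates histamine, passed the adjusted p (0.033) with a change of -0.13 and was the 1 gene lower at an unadjusted p under 0.05, while the receptor Hrh1 had a change of 0.04.

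**Figure D3:**
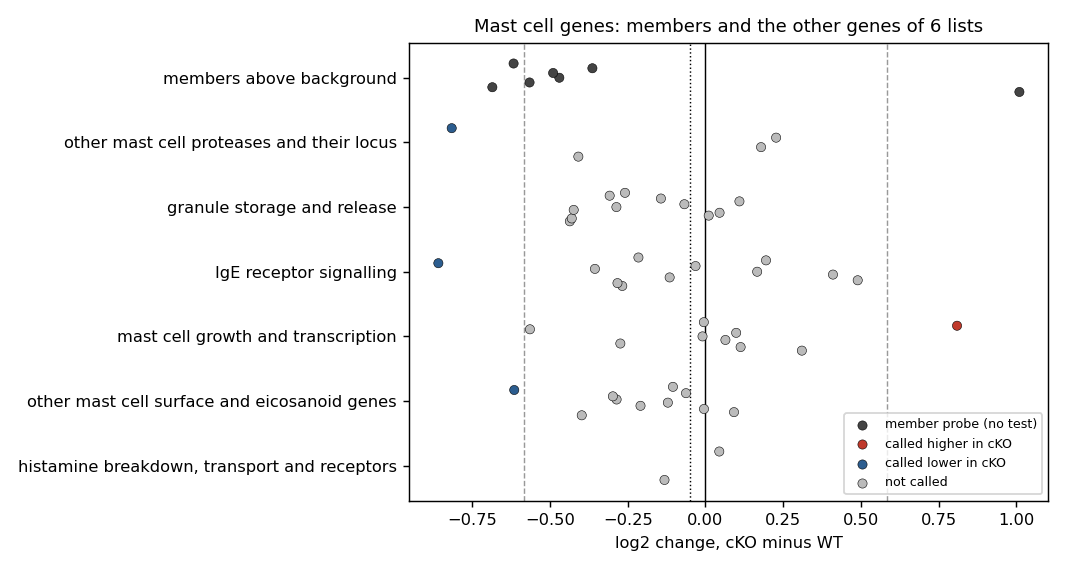
Change of each mast cell gene (horizontal axis, log2, cKO minus WT) by list, with member probes in the top row and 47 other tested genes under them. Dashed lines mark 1.5-fold and the dotted line the median of all genes; member probes other than Hdc lie left of 0, and 1 other gene was called higher and 3 lower.

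Hdc is also made by basophils and by neutrophils and their precursors, so markers of both were read beside it. Of 4 basophil markers 1 was tested (Il3ra, change -0.01), while Mcpt8, Prss34 and Cd200r3 were not well above background on both arrays of either pool. Il3ra is not particular to basophils, so the list gives no measured level of that cell type. Of 10 neutrophil markers 4 were tested. Mpo, the peroxidase of granulocyte precursors, rose (0.70, adjusted p = 0.003) and S100a9, a calcium-binding protein abundant in neutrophils, fell (-0.70, adjusted p = 0.0015), both by limma. With normexp and quantile normalization Mpo (0.57) was not called. S100a8, the partner of S100a9, changed by 0.32 and Csf3r by -0.12. Elane, Ngp, Camp, Retnlg and Mmp8 were not well above background on both arrays of either pool. The summed signal of the 4 tested genes was 1.70 to 1.73 in cKO and 2.18 to 2.21 in WT, with S100a9 as its largest term. The part of either cell type in the Hdc signal was not tested.

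Markers of other cell types and tissues were read from the same fit, with signals summed over the tested genes of a list, and their part in the mast cell values was not tested. Over all genes, 57.1% were below 0, and limma called 5.67% higher and 4.81% lower. At any fold, 22.1% were higher and 33.6% lower at an adjusted p under 0.05, and 25.2% and 37.4% at an unadjusted one. General leukocyte markers gave 0 calls by limma among 5 genes, none reaching 1.5-fold (0 higher and 2 lower at an adjusted and at an unadjusted p under 0.05). Their median was -0.08 beside -0.05 over all genes, with summed signals of 8.79 to 8.83 in cKO and 9.60 to 9.80 in WT. Macrophage markers had a median of -0.13 over 10 genes, with Fcgr1 lower (-0.65) and summed signals of 161.7 to 164.6 in cKO and 177.4 to 178.0 in WT. Endothelial markers were below 0 in 7 of 7 genes (median -0.31), Emcn and Lyve1 being called lower (Lyve1 not when its probes were averaged, at -0.55), with summed signals of 11.6 to 11.7 in cKO and 15.7 to 15.8 in WT. Skeletal muscle markers were below 0 in 8 of 8 genes (median -0.60), 4 of them called (Ckm, -0.69, not under either quantile setting), with summed signals of 789.3 to 791.0 in cKO and 1104 to 1156 in WT. Adipocyte markers were below 0 in 6 of 7 genes (median -0.28), Gpd1 (-1.26) and Lep (-0.97) being called lower, with summed signals of 266.2 to 266.8 in cKO and 297.3 to 300.1 in WT. Dermal fibroblast markers had a median of -0.17 over 8 genes, with Dpt higher (0.77), Lum lower (-0.63, not called under either quantile setting) and summed signals of 785.5 to 786.7 in cKO and 846.2 to 926.8 in WT. Epidermal markers had a median of -0.13 over 7 genes, of which limma called 0 (2 higher and 4 lower at an adjusted and at an unadjusted p under 0.05, none reaching 1.5-fold), with summed signals of 627.7 to 636.8 in cKO and 699.2 to 742.2 in WT. On the other side, 7 of 7 tested melanocyte markers were called higher (median 1.23), with summed signals of 14.6 to 14.7 in cKO and 8.74 to 8.80 in WT. Of these, Oca2 was well above background on no WT array and Trpm1 on 1, so both were tested only through the cKO pool. The count, median and summed signals include them. The other tested melanocyte markers, well above background on all arrays, were higher by 0.59 (Dct) to 1.77 (Slc45a2). Dct was not called without WT replicate 2 (0.58) or without cKO replicate 2 (0.57), and Slc45a2 not without cKO replicate 2 (1.74). Tyr was too dim to be tested. Langerhans cell markers had a median of 0.39 over 5 genes with none called by limma, since none reached 1.5-fold (4 higher and 0 lower at an adjusted p under 0.05, and 5 higher and 0 lower at an unadjusted one).

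**Figure D4:**
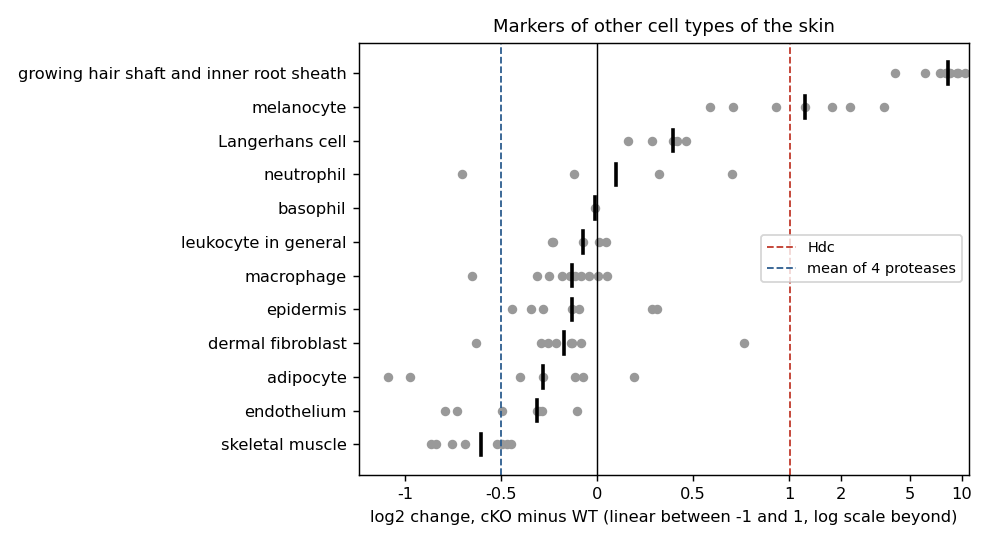
Change of each marker gene (horizontal axis, log2, cKO minus WT, linear near 0 and logarithmic beyond 1 log2 unit) for 12 cell types or tissues, with black bars for medians. Dashed lines mark Hdc (1.01) and the mean of 4 proteases (-0.50). Markers of skeletal muscle, endothelium, adipocytes, dermal fibroblasts, macrophages and neutrophils lie on both sides of the protease line. Growing hair markers lie far to the right, with a median of 8.26 that includes Krt85, Krt86 and Krt25, above background in cKO only.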

How the data were processed

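Per the file headers, scans were quantified in Agilent Feature Extraction (version 10.7.3.1). The deposited spot intensity (background-subtracted and detrended, per the file headers) was the starting value. The authors' processed values, a linear ratio that was found to be the intensity divided by 1 number per array, served as an alternative; their scale was thereby settled and they are not centred per gene, with column medians of 0.114 and 0.112 (cKO) and 0.112 and 0.113 (WT). The arrays held 43379 non-control spots. Control spots and spots marked as outliers were left out, no spot was saturated, and 62.1% to 69.1% of spots were well above background. Slide and scan time were the same for all arrays, so no batch could be fitted. That there are only 2 arrays per pool limits the precision.

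The log2 intensity minus each array's 75th percentile was averaged over spots of a probe. Probes were kept that passed the scanner's background flag in duplicate in at least 1 pool, and a gene was its kept probe with the highest mean, which left 17562 genes. Duplicate arrays correlated at r = 0.997 (cKO) and 0.996 (WT) across genes, which are not independent replicates. Names were updated through a GRCm38.p6 list from RefSeq, used for names only: the accession named 26682 probes, the current symbol 5195 and an earlier symbol 951, while 8346 kept the file's name. Probe coordinates on mm9 were taken from the scanner files. Without mm9 gene models, which were not used here, exons and untranslated regions are not assigned.

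The test between pools was limma's moderated two-sided test (version 3.58.1, under R 4.3.3; lmFit, then eBayes) without covariates, p-values were adjusted by Benjamini-Hochberg over all genes tested, and a gene was called at an adjusted p under 0.05 and at least 1.5-fold. Tables were handled in pandas 2.3.3 (Python 3.11.15) and data.table (version 1.17.8), and matplotlib 3.10.9 drew the plots. The fit was run on simulated data whose spread was that between duplicate arrays, so the run says nothing about the spread between pools. Members and lists were chosen with earlier results of these data known. The genes named were the members, Fgf18, the called genes of each list or the 2 with the largest change, and the 5 genes most like Hdc or the proteases; other genes named were chosen after their values were seen. The SE of a member is that of 2 against 2 arrays, while the SE of other genes is limma's.

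Alternatives were normexp background correction (offset 50) with quantile normalization, quantile normalization alone, median scaling, the authors' values, averaging all probes of a gene, keeping outlier spots, other filters on dim probes, trend and robust moderation, the replicate number as a block, and omitting 1 array at a time.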

Additional observations from a re-analysis of the deposited data

How the results depend on the processing

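Hdc was higher and the 6 other member probes above background were lower under every alternative run on them. The difference between Hdc and the protease mean was 1.27 with normexp and quantile normalization and 1.30 with quantile normalization alone, against 1.46, and lay between 1.41 and 1.52 in the other settings, including the set without Tpsab1, chosen after seeing the data. The median over member probes was -0.34 with normexp and quantile normalization, against -0.47. Under that setting Fcer1a changed by -0.27 and Cma1 (brighter probe) by -0.57, and both calls were lost, as was that of Fcer1a (-0.53) without cKO replicate 2; the cause was not tested. Tpsab1, at background, turned to 0.037 with normexp and quantile normalization and to 0.27 with quantile normalization alone, against -0.25. Genes called lower over the whole array were 478 with normexp and quantile normalization, against 844. When all probes of a gene were averaged, limma called 0 other mast cell genes higher, against 1 (Runx1), with 9 higher at an unadjusted p under 0.05. The median change of all genes moved by over 0.1 with no filter alone, to -0.16. With the replicate number as a block, 987 genes were called higher and 826 lower, against 996 and 844; deviations of same-numbered arrays correlated at -0.045 over 17562 genes, so the arrays share only a number. Probes near background, Fcer1a among the members, limit what these arrays show.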
